A study of Danio rerio with 10 samples.

Results

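The 77 cytoplasmic ribosomal protein genes described here were found by gene symbol among the 14563 symbols of the deposited tables. The symbols begin with rpl, rplp or rps and a number, or are rpsa. Of 85 symbols that fit this pattern, 6 for S6 kinases (rps6k) and 2 ending in l1 (rpl22l1 and rpl7l1) were left out. The 77 genes comprise 45 of the large (60S) and 32 of the small (40S) subunit. They lie on all 25 chromosomes of the zebrafish build danRer7, and each matched a RefSeq accession in the supplied gene table. The choice used symbols and no measured value. Ribosomal protein genes with other names, such as rps27.1 and rps27.2, fall outside the pattern and were kept apart.

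Ribosomal proteins assemble with ribosomal RNA in the nucleolus, are exported as subunits and carry out translation in the cytoplasm. Their mRNAs are short, very abundant and begin with an oligopyrimidine tract (TOP) through which vertebrate cells adjust their translation as a group. When assembly stalls, free Rpl5 and Rpl11 bind the ubiquitin ligase Mdm2 in mammalian cells, and p53 is then stabilised. In the developing embryo shortage of single ribosomal proteins is known for anaemia and craniofacial defects.

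The series measured polyadenylated RNA of TL zebrafish embryos at 36 hours post fertilization. The fn10a line is known to carry its lesion in eftud2, whose product is a GTPase of the U5 particle of the spliceosome. Mutants were fn10a-/- embryos, and siblings were a mixture of fn10a+/- and +/+ embryos from the same crosses of heterozygotes, so some siblings carried 1 mutant allele. Wild-type controls came from separate TL crosses and carried no fn10a allele per the labels. Each of these 3 groups had 2 whole-embryo libraries of 30 embryos each, made by a strand-specific dUTP protocol after Trizol extraction. Nuclear and cytoplasmic RNA, separated with the PARIS kit, gave 1 unstranded library each from mutants and from siblings. The labels do not say whether the replicates were separate clutches, and p-values below therefore reflect only how far these libraries differed, which may be technical.

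The read counts of all listed transcript records summed to 34060890 to 82752349 per whole-embryo library and 7164408 to 19195327 per fraction library. Records of 1 gene can overlap, so a read may be counted more than once in these sums. The 2 records of rps12, with the same start and end, hold 687203 and 654437 reads over all libraries. Shares of listed reads below divide by these sums, while the family enters with 1 record per gene. Listed transcripts took 54.2% to 58.7% of the authors' library total in replicate 1 and 31.6% to 33.7% in replicate 2 of the whole embryos. In the fractions they took 19.2% in mutant nuclei, against 33.5% in sibling nuclei, and 41.8% in mutant cytoplasm, against 41.7% in sibling cytoplasm. The replicate 1 files also name a column differently, so replicate number coincides with the file format. eftud2, the gene of the fn10a lesion, had 11.3 and 3.60 RPKM in mutants, 28.1 and 9.91 in siblings and 30.2 and 10.5 in controls. Its log2 fold change for mutants over siblings was -1.35 ± 0.13 (SE, edgeR adjusted p = 0.0183, n = 2 libraries each). Lists of markers of 6 tissues (muscle, blood, neurons, epidermis, yolk syncytial layer and notochord) all had members with reads in whole embryos, and only ttr, a yolk marker, was listed at 0 in some library.

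Ribosomal protein mRNAs were among the most abundant in every library. They held 9.94% and 9.57% of listed reads in the mutants, 10.8% in each sibling library and 10.9% and 10.4% in the controls, replicates 1 and 2 in that order. On listed reads both mutant libraries lay below all sibling and control libraries. The mean share was 9.75% ± 0.264 (SD, n = 2) in mutants, against 10.8% ± 0.00150 in siblings and 10.6% ± 0.406 in controls. The exact two-sided permutation p was 0.333 for mutants against siblings and 0.333 for mutants against controls, the smallest that 2 libraries against 2 can give. Counting error is far smaller: the 95% exact binomial interval of the first mutant library was 9.93% to 9.95%, and such intervals cover counting error only. In the fractions the share was 17.4% in mutant nuclei, against 14.1% in sibling nuclei, and 15.1% in mutant cytoplasm, against 16.9% in sibling cytoplasm. On listed reads all 4 fraction libraries thus held more than any whole-embryo library, and the mutant library was the higher of the nuclear pair and the lower of the cytoplasmic pair. Measured against the authors' totals, which include reads outside the listed transcripts, the nuclear order was the other way round, with 3.34% in mutants and 4.71% in siblings. Replicate 1 whole embryos held more than either, with 5.47% in mutants, 6.33% in siblings and 5.92% in controls. In replicate 2 they held 3.09%, 3.41% and 3.49% in that order. Sibling nuclei lay above all of these replicate 2 values, and mutant nuclei only above that of the mutants. On that total the mutant was lowest within each replicate, but mutant replicate 1 lay above sibling and control replicate 2.

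**Figure D1:**
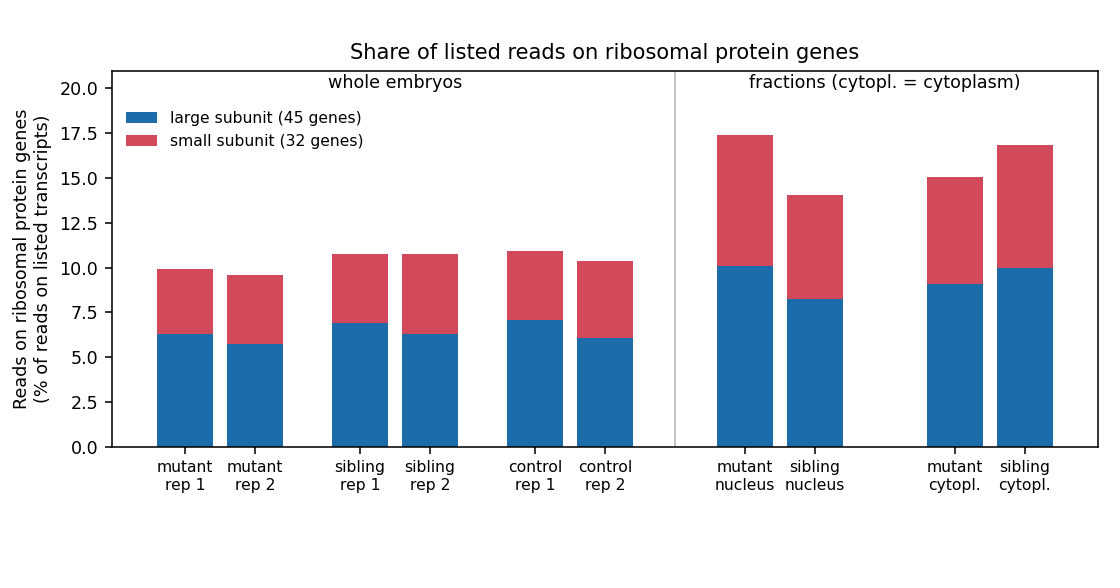
The percentage of reads on listed transcripts that fell on large subunit genes (blue, 45 genes) and small subunit genes (red, 32 genes), stacked, in each of the 10 libraries. The whole-embryo mutant libraries stand at 9.94% and 9.57%, below the siblings and controls, and the mutant nuclear library stands highest at 17.4%.

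Of the 77 genes, 76 passed the filter of a mean RPKM (reads scaled to transcript length in kilobases and to library size) of 1 or more over the whole embryos. Apart from rps8b, their RPKM ran over 113 to 3454 in the first and 209 to 1321 in the second mutant library. In siblings it ran over 102 to 5147 in the first and 231 to 1386 in the second library, and in controls over 84.1 to 4712 in the first and 215 to 1474 in the second. Among the 200 genes with the highest RPKM were 74 ribosomal protein genes in each replicate 1 library and 76 in each other library. The highest mean over the whole embryos belonged to rps15a, a small subunit protein, followed by the large subunit genes rpl35, rpl6, rpl34 and rpl30. The lowest, above rps8b, belonged to rplp2, rps26, rpl38 and rpl36a. Summed RPKM of the large over the small subunit was 1.72 and 1.44 in mutants, 1.75 and 1.37 in siblings and 1.82 and 1.38 in controls, replicates 1 and 2 in that order. This ratio separated the replicates and not the genotypes.

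The order of the genes by level also differed between the replicates. rps15a, on chromosome 3 at 26666383 to 26671452 (minus strand), had 3454 and 406 RPKM in mutants, 5147 and 492 in siblings and 4712 and 476 in controls, which is 8.51, 10.5 and 9.91 times as much in replicate 1 as in replicate 2. rpl38, a large subunit protein needed for translation of Hox mRNAs in the mouse embryo, had 113 and 466 RPKM in mutants, 135 and 643 in siblings and 119 and 550.4 in controls. rplp2, a protein of the stalk that recruits elongation factors, had 118 and 362 RPKM in mutants, 102 and 362 in siblings and 84.1 and 353 in controls. rpl38 and rplp2 were thus low in all replicate 1 libraries, where rps15a was high, and for all 3 genes the replicates differed by more than the genotypes within a replicate. Over the 77 genes, Spearman's rho of RPKM between the replicates was 0.45 in mutants, 0.40 in siblings and 0.38 in controls, against 0.91, 0.89 and 0.83 over the 10147 genes tested. Within a replicate, rho between groups ran over 0.90 to 0.98 for the same 77 genes. Sibling replicate 2 had a rho of 0.72 with sibling cytoplasm, against 0.38 for sibling replicate 1. Genes share their libraries, so these coefficients describe the libraries and carry no test.

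**Figure D2:**
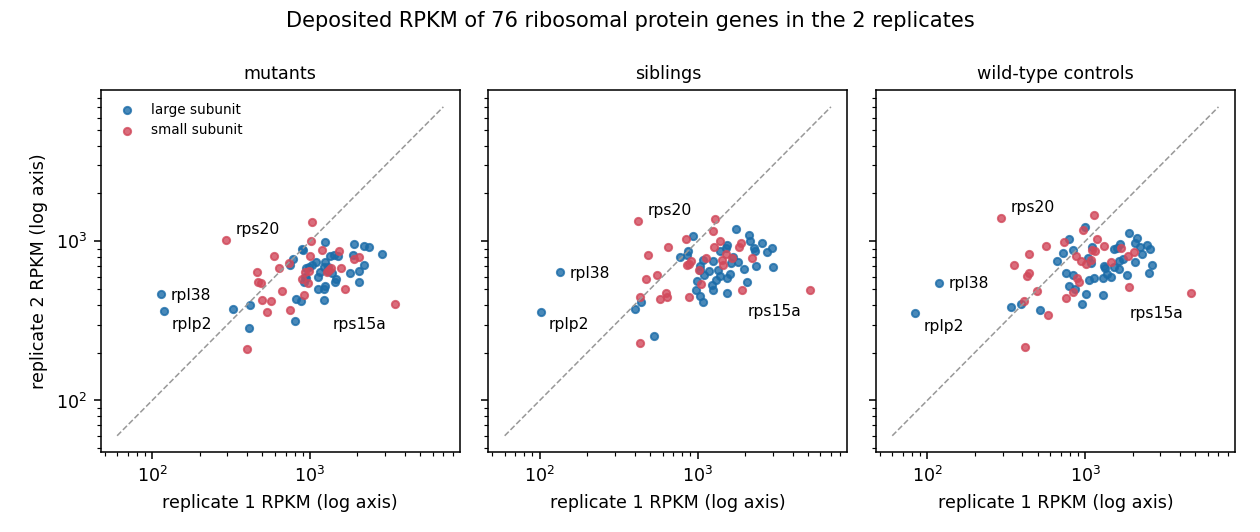
RPKM of 76 ribosomal protein genes in replicate 1 (x, log axis) and replicate 2 (y, log axis) of mutants, siblings and wild-type controls, with blue for the large and red for the small subunit and a dashed line of equal values. In all 3 panels rps15a lies farthest to the right, in mutants less far from the next gene, and rpl38, rplp2 and rps20 lie to the left, so the same genes stand apart in each genotype.

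The ratios of some pairs of related genes showed the same division. rplp2 over rplp2l was 0.0576 and 0.555 in mutants, 0.0515 and 0.538 in siblings and 0.0551 and 0.513 in controls, and 0.558 in mutant nuclei and 0.476 in mutant cytoplasm, against 0.381 in sibling nuclei and 0.486 in sibling cytoplasm. rpl5a over rpl5b, both coding for the protein that carries 5S rRNA to the ribosome, was 0.664 and 1.01 in mutants, 0.635 and 1.04 in siblings and 0.662 and 1.097 in controls. rps26 over rps26l was 0.598 and 0.430 in mutants, 0.675 and 0.520 in siblings and 0.548 and 0.492 in controls. For rplp2 over rplp2l and rpl5a over rpl5b the replicate 1 ratios of the genotypes lay together and apart from those of replicate 2. For rps26 over rps26l all replicate 1 ratios were above those of replicate 2. The genotypes within a replicate were spread more widely there than the gap between replicates. rps8b stood at the floor of the family, with 43 and 20 reads in mutants, 64 and 18 in siblings and 39 and 26 in controls (95% Poisson interval of the first mutant library 31.1 to 57.9 reads), while rps8a had 1581 and 682 RPKM in mutants, 1839.6 and 916 in siblings and 1676 and 910.2 in controls. Paralog sequences are similar, so reads may have been divided between copies.

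No ribosomal protein gene passed the test between mutants and siblings. Their log2 fold changes, mutant over sibling, were small and mostly below 0: 58 of 76 lay below 0, the median was -0.13 and the range was -0.59 to 0.27. Over all 10147 genes tested 50.03% lay below 0 and the median was -0.00057. The median was -0.12 for the 45 large and -0.14 for the 31 small subunit genes. A log2 of -0.13 corresponds to 0.915 of the sibling level. In bulk RNA of whole embryos, fewer cells of a type and less RNA per cell cannot be told apart.

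The test was edgeR's quasi-likelihood test with replicate number as a block and Benjamini-Hochberg adjustment over all genes at 0.05. It called 0 of 76 ribosomal protein genes, against a background of 1.16% of all genes called higher and 0.581% called lower. The smallest adjusted p among the 76 was 0.112. At an unadjusted p under 0.05 there were 9, all with a negative fold change (rpl12, rpl13a, rpl18, rpl24, rpl27a, rpl37, rps7, rps12 and rps15a). Over all 10147 genes tested, 1161 were higher and 1198 lower at that threshold. The smallest absolute log2 fold change that was called for any gene was 0.78, which exceeds every estimate in the family. Within replicates the median was -0.05 in replicate 1 and -0.21 in replicate 2, and 46 of 76 genes were lower in mutants in both replicates, against a background of 37.9%, while 8 were higher in both, against 38.8%. Without the block, edgeR called 0 of all genes and 0 ribosomal protein genes, with 534 of all genes and 0 of the family at an unadjusted p under 0.05. DESeq2 with the block called 1, rpl12 (log2 -0.58, adjusted p = 0.0133), against a background of 6.08% higher and 5.73% lower. With only the mutant and sibling libraries in the fit, edgeR called 4 genes lower (rpl12, rpl27a, rpl37 and rps20). The share of all genes called in that fit is not given here, so this count has no background beside it. In that fit, and without control replicate 1 or 2, estimates were almost unchanged (rpl12 -0.60 in each) and standard errors smaller.

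The lowest fold change belonged to rpl12, a protein at the base of the ribosomal stalk (chromosome 5, 34500603 to 34504806, plus strand). It had 936 and 593 RPKM in mutants, 1679 and 799 in siblings and 1748 and 775 in controls. The mutant library was lowest within each replicate, although the groups overlap across replicates. The log2 fold change over siblings was -0.59 ± 0.15 (SE), with a 95% interval of -0.98 to -0.21 and an edgeR adjusted p of 0.112. rps7, a small subunit protein mutated in some human Diamond-Blackfan anaemia, had 637 and 683 RPKM in mutants, 841 and 1042 in siblings and 736 and 983 in controls. Its mutant values were the lowest in either replicate, with a log2 fold change of -0.46 ± 0.16 (edgeR adjusted p = 0.169). rpl18, a large subunit protein, had 1455 and 584 RPKM in mutants, 2332 and 705 in siblings and 2635 and 715 in controls, again lowest in the mutant within each replicate (log2 -0.43 ± 0.16, edgeR adjusted p = 0.191). rps20, of the head of the small subunit, had 294 and 1026 RPKM in mutants, 418 and 1338 in siblings and 294 and 1409.7 in controls. In replicate 1 its mutant and control values nearly coincided and only the sibling was higher.

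The other stalk genes had estimates above that of rpl12. rplp0, the stalk's anchor, had a log2 fold change over siblings of 0.05 ± 0.12, rplp1 of -0.34 ± 0.22 and rplp2 of 0.16 ± 0.16 (SE). All 3 intervals included 0, and that of rplp1 (-0.91 to 0.22) also held the estimate of rpl12. The difference between these genes and rpl12 was not tested.

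The highest fold changes over siblings belonged to rpl19, rpl22, rpl11 and rpsa. rpl19, whose protein reaches across to the small subunit, had 1421 and 822 RPKM in mutants, 1392 and 607 in siblings and 1374 and 623 in controls, with a log2 fold change of 0.27 ± 0.13 (SE) and an edgeR adjusted p of 0.286. Its replicate 2 value was above both other groups and its replicate 1 value was close to them. rpl22, which has the paralog rpl22l1, had 1292 and 654 RPKM in mutants, 1257 and 492 in siblings and 788 and 525 in controls, with a log2 of 0.26 ± 0.19 over siblings (edgeR adjusted p = 0.467). rpl22l1 itself had 231 and 101 RPKM in mutants, 355 and 171 in siblings and 228 and 181 in controls, and a log2 of -0.64 ± 0.24 over siblings (edgeR adjusted p = 0.202). The pair thus had estimates of opposite sign, neither of which passed the test. rpsa, the homolog of the human laminin receptor precursor, had 2042 and 798 RPKM in mutants, 1664 and 780.4 in siblings and 1878 and 809 in controls, with mutant and sibling closer in replicate 2 than in replicate 1 (log2 0.20 ± 0.15, edgeR adjusted p = 0.47).

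**Figure D3:**
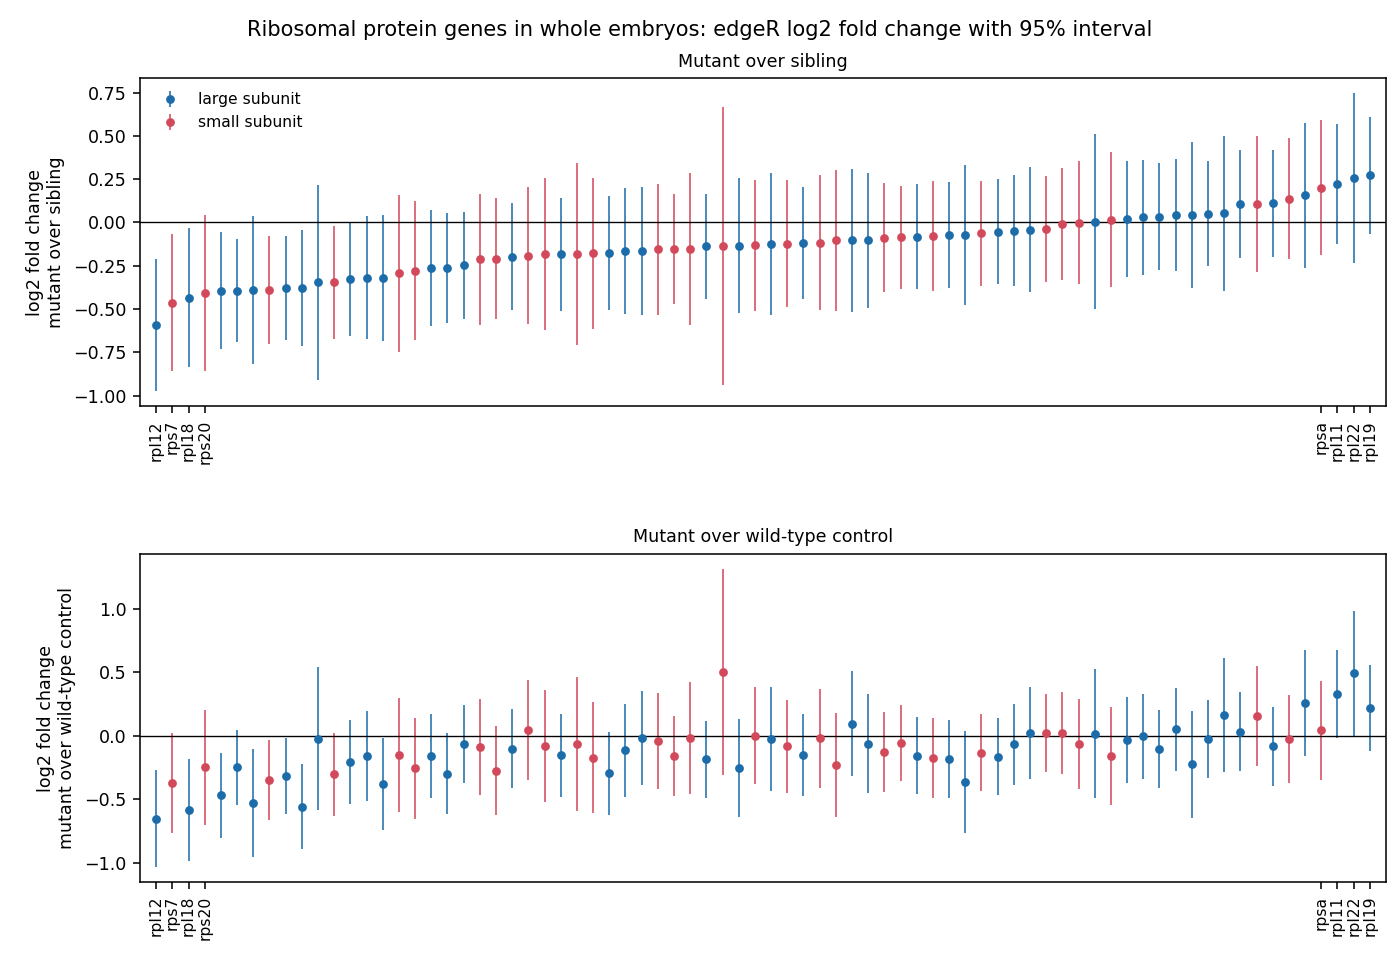
Log2 fold change from edgeR for 76 ribosomal protein genes (blue large, red small subunit), with a 95% interval derived from the test's F statistic. The upper panel shows mutants over siblings and the lower panel mutants over wild-type controls. Both follow the order of the upper panel, with the 4 genes at either end named. The estimates run from -0.59 to 0.27 above and from -0.65 to 0.50 below, and no gene passed an adjusted p of 0.05 in either.

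Unlike rps7, the genes that follow, chosen for a known role outside the ribosome, in human disease or at the core of the ribosome, had 95% intervals that included 0. rpl11, the partner of Rpl5 in binding Mdm2, had 902 and 879 RPKM in mutants, 772 and 797 in siblings and 667 and 748 in controls, so that the mutant was highest in each replicate (log2 0.22 ± 0.14 over siblings, edgeR adjusted p = 0.379). rpl5a and rpl5b had log2 fold changes of -0.18 ± 0.13 and -0.20 ± 0.12. rpl23, which also binds MDM2 in human cells, had -0.17 ± 0.14. rps19 and rpl35a, both mutated in Diamond-Blackfan anaemia, had -0.29 ± 0.18 and -0.33 ± 0.13. rps6, the substrate of the S6 kinases, had -0.08 ± 0.12, rpl3, next to the peptidyl transferase centre, -0.14 ± 0.12, and rps3, at the mRNA entry channel, -0.10 ± 0.16. Their edgeR adjusted p-values ran from 0.217 for rpl35a to 0.744 for rps6.

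Against wild-type controls the picture was similar, with the mutant libraries shared between the comparisons. Again 0 of 76 genes were called, against a background of 1.91% higher and 1.57% lower. Of the 76, 39 were lower in both replicates, against a background of 34.1%, and 3 higher in both, against 32.6%. The median log2 fold change, mutant over control, was -0.10 (-0.12 large, -0.08 small), against -0.01 over all genes. Below 0 lay 60 of 76, against 51.3% of all genes. At an unadjusted p under 0.05 there were 8, all of them lower, against 1348 higher and 1501 lower of all 10147 genes. Within replicates the median was -0.03 in replicate 1 and -0.24 in replicate 2, and for the small subunit it was 0.07 in replicate 1 and -0.25 in replicate 2, so its direction differed between them. Leaving out 1 library gave a median of -0.21 to -0.03 over the family and of -0.22 to 0.03 for the small subunit, the lowest values without mutant replicate 1 and the highest without mutant replicate 2. The lowest estimates belonged to rpl12 (-0.65 ± 0.15, edgeR adjusted p = 0.0744), rpl18 (-0.59 ± 0.16, adjusted p = 0.0946), rpl24 and rpl10a. rpl24, of the face toward the small subunit, had 986 and 688 RPKM in mutants and 1596 and 906 in controls (log2 -0.56 ± 0.13, edgeR adjusted p = 0.0761). rpl10a had 1157 and 643 RPKM in mutants and 2065 and 739 in controls (log2 -0.53 ± 0.17, edgeR adjusted p = 0.125). In both genes the mutant was below the control in each replicate. DESeq2 called 5 genes lower (rpl10a, rpl12, rpl13a, rpl18 and rpl24), against a background of 8.45%.

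The highest estimates over controls belonged to rps29, rpl22, rpl11 and rplp2, and none passed the test. rps29 had 741 and 731 RPKM in mutants, 911 and 753 in siblings and 353 and 712 in controls, so the first control library stood apart from the other 5. Its log2 fold change over controls was 0.50 ± 0.32, and -0.04 without that library. rpl22 had a log2 of 0.49 ± 0.19 over controls, with 0.75 within replicate 1, 0.26 within replicate 2 and 0.21 to 0.81 with 1 library left out. rpl11 had 0.33 ± 0.14 over controls (edgeR adjusted p = 0.199), with 0.47 and 0.17 within the replicates and 0.18 to 0.46 with 1 library left out. rplp2 had 0.26 ± 0.16 (edgeR adjusted p = 0.358), with 0.53 and -0.02 within the replicates and 0.02 without mutant replicate 1. The mutant was thus above the control in both replicates for rpl22 and rpl11 and in replicate 1 alone for rplp2. With control replicate 2 left out, the log2 fold change over controls was 1.13 for rps29 and 0.81 for rpl22. For rpl10a, rpl12, rpl18 and rpl24 it was -0.73, -0.80, -0.75 and -0.66 in that order. That fit holds 1 control library.

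Between siblings and controls 0 of the 76 genes and 0 of all genes were called by edgeR, a background of 0% (878 at an unadjusted p under 0.05, of which 0 in the family; DESeq2 called 0.306% of all genes higher and 0.621% lower, and 0 of the family). The median log2 fold change, sibling over control, was 0.02 (large -0.03, small 0.04) and the range was -0.29 for rpl31 to 0.64 for rps29. In replicate 1, 31 of 76 genes were lower in siblings, and in replicate 2, 49 were, against 5320 and 4979 of 10147 over all genes. Without control replicate 2, the log2 fold change of rps29, sibling over control, was 1.27.

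Genes of related processes, in lists chosen with earlier results of these data known, mostly did not pass the test either. Over all genes tested 1.16% were called higher in mutants than in siblings. Of 61 mitochondrial ribosomal protein genes 1 was called higher, mrps33, with 22.6 and 17.02 RPKM in mutants and 5.90 and 4.12 in siblings (log2 2.03 ± 0.13, edgeR adjusted p = 0.0122). The median of that list was 0.09. Of 55 translation initiation factors 1 was called higher, eif4a3, better known as a core of the exon junction complex, with 139.8 and 116 RPKM in mutants and 70.7 and 48.4 in siblings (log2 1.16 ± 0.14, edgeR adjusted p = 0.035). Both counts are near that background. None of 13 elongation and termination factors, 29 other genes with TOP mRNAs, 59 ribosome assembly factors and 9 RNA polymerase I genes was called in either direction. Their medians were 0.00055, 0.00055, 0.25 and 0.24. The elongation and TOP lists share members, so their equal medians are not separate results. eef1a1l1, the elongation factor with the highest level and a TOP mRNA in mammals, had 4313 and 1946 RPKM in mutants and 4776 and 1852 in siblings (log2 0.00055 ± 0.14). The ribosomal protein genes outside the symbol pattern, with rpl22l1 and rpl7l1, had a median of -0.01 over 7 genes and 0 calls. Against controls, nmd3, the export adaptor of the large subunit, was the 1 assembly factor of 59 called higher (log2 1.61 ± 0.22, edgeR adjusted p = 0.0353). The background in that comparison was 1.91% of all genes called higher. Of the other lists, 2 mitochondrial ribosomal protein genes, 1 initiation factor and 7 p53 pathway genes were called higher against controls. Of 10 genes of the p53 pathway 7 were higher in mutants than in siblings, with a median of 2.14 on the log2 scale. mdm2 had 72.4 and 38.8 RPKM in mutants and 12.6 and 7.19 in siblings (log2 2.51 ± 0.15, edgeR adjusted p = 0.0122).

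Tissue markers were read in the same libraries. The 4 erythroid markers summed to 2972 and 4237 RPKM in mutants, 6160 and 8441 in siblings and 3728 and 8925 in controls, and 6 muscle markers to 4750 and 1248 in mutants, 5789 and 1294 in siblings and 4993 and 1054 in controls. The median log2 of mutants over siblings was -1.03 for the erythroid, -0.28 for the muscle, 0.05 for the 5 neuron, 0.25 for the 4 epidermis, -0.11 for the 3 yolk and 0.67 for the 2 notochord markers tested. None of these markers was called against siblings. Against controls 1 was called lower, the neuron marker tubb5, beside a background of 1.57% of all genes called lower. It had 72.9 and 31.1 RPKM in mutants and 123 and 55.9 in controls (log2 -0.81 ± 0.12, edgeR adjusted p = 0.0383). The part of tissue composition in the values of the ribosomal protein genes was not tested.

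In the fractions, with 1 library each, there is no replicate check and no test, and ratios are log2((a + 1)/(b + 1)) of RPKM. In siblings all 76 ribosomal protein genes were lower in the nucleus than in the cytoplasm, against a background of 72.1% of 8631 genes. The median nucleus to cytoplasm ratio was -0.56 (large -0.56, small -0.55), against -0.22 over all genes, and all 76 lay below that median. The range was narrow, from -1.10 for rps26 to -0.27 for rpl9. Past 2-fold lower were 2 genes (rps26 and rps25), against a background of 7.47%.

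In mutants all 76 genes were also lower in the nucleus, against a background of 94.8%, and the spread was wider, from -2.01 for rpl7 to -0.23 for rps26l. The median was -0.86 (large -0.92, small -0.84), against -1.06 over all genes, and 21 of 76 lay below that median. Past 2-fold lower were 29, against a background of 53.7%. The SD over the family was 0.359 in mutants, against 0.171 in siblings. Over all genes the SD was also larger in mutants, at 0.724 against 0.576. These medians are over genes of all lengths, and the family's transcripts are shorter than most. Within bins of length the gap to all genes was smaller or turned round in mutants. The median ratio was -0.75 for 29 members under 500 bases, against -0.81 for all 123 genes of that length. It was -0.96 for 30 members of 500 to 800 bases, against -0.81 for all 465 genes. For 17 longer members it was -0.95, against -1.08. All genes of a bin include the members, which brings the 2 medians closer. In siblings it was -0.65 against -0.54, -0.51 against -0.46 and -0.51 against -0.20 in the same order, with the members lower in each bin. Bins were made on RPKM as deposited alone, and the part of length in the gap was not tested. The last bin is not matched for length. Its members end at 1469 bases, and only 2813 of the 8631 genes are no longer than that. The zero of these ratios depends on scaling, and so do the counts past 2-fold and the size of the gap in mutants. In mutants the family median lay 0.19 above that of all genes as deposited. That gap was 0.58 on listed reads and 0.62 with TMM scaling. Below the median of all genes lay 21 members as deposited, 8 on listed reads and 6 with TMM scaling. In mutants TMM scaling put 8 of 76 past 2-fold higher and 0 past 2-fold lower, against 1063 and 1535 of 8631 genes. With TMM scaling the mutant median was 0.67 (all genes 0.05) and the sibling median -0.29 (all genes 0.00), so the sign of the mutant ratio flips while the side of the family relative to the median of genes of all lengths stays.

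**Figure D4:**
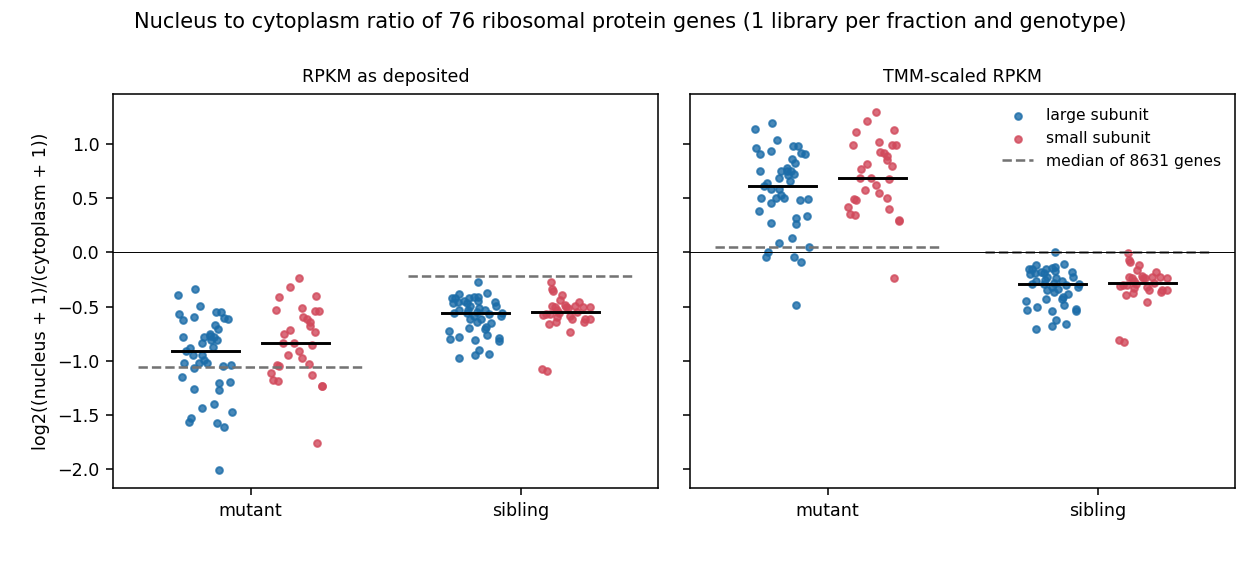
Log2 nucleus to cytoplasm ratio of each of 76 ribosomal protein genes in mutants and siblings, by large (blue) and small (red) subunit, from RPKM as deposited (left) and after TMM scaling (right). Black bars are medians of the genes shown and grey dashed lines medians of all 8631 genes. The genes lie below the dashed line in siblings and mostly above it in mutants under either scaling.

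Single genes show the range. rps26, another gene mutated in human Diamond-Blackfan anaemia, had 477 RPKM in mutant nuclei against 743 in mutant cytoplasm, and 452 in sibling nuclei against 971 in sibling cytoplasm. rpl7, a large subunit protein on chromosome 2 at 29892308 to 29897165 (minus strand), had 282 RPKM in mutant nuclei against 1142 in mutant cytoplasm, and 857 in sibling nuclei against 1266 in sibling cytoplasm. Its cytoplasmic values were close and its nuclear values were not, giving ratios of -2.01 in mutants and -0.56 in siblings. rpl9, highest of the family in siblings at -0.27, had a lower ratio in mutants, at -1.62, with 261 RPKM in mutant nuclei against 802 in mutant cytoplasm, and 644 in sibling nuclei against 777 in sibling cytoplasm. rps4x, near rpl9 in siblings at -0.27, had -0.60 in mutants. rpl9 and rps4x thus lay side by side in siblings and far apart in mutants.

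Set against siblings, mutant nuclei had a median log2 of -0.45 over the family, against -0.84 over all genes, with 68 of 76 below 0 against a background of 88.9% and 8 past 2-fold lower against 39.9%. On RPKM as deposited none was past 2-fold higher, against a background of 1.22%. With TMM scaling the median was 0.78, against 0.04 over all genes, and 70 of 76 lay above 0, against 4453 of 8631. Past 2-fold higher were then 25 of 76, against 1231 of 8631 genes. Past 2-fold lower were then 0 of 76, against 1428 of 8631. In cytoplasm the median of mutants over siblings was -0.15 (large -0.14, small -0.15), against 0.02 over all genes, with 70 of 76 below 0 against a background of 47.7%. None was past 2-fold in either direction, against a background of 1.46% lower and 1.53% higher. This sign was the same with TMM scaling (-0.17) and on listed reads (-0.15), as was the sign of the whole-embryo median. The lowest cytoplasmic values among the 76 were those of rpl12 (-0.48), rps20 (-0.42) and rps19 (-0.40), and the highest those of rpl19 (0.27), rpl22 (0.15) and rpl11 (0.15). In whole embryos, whose libraries are separate from those of the fractions, rpl12 and rps20 were also among the 4 lowest. There rpl19, rpl22 and rpl11 were the 3 highest. rps19, at -0.29 in whole embryos, was not among the 4 lowest there. The other genes among those 4 were rps7, at -0.38 in cytoplasm, and rpl18, at -0.12 and so above the family median of -0.15. How far the orders of the genes match was not tested. In nuclei rpl12 stood at -0.76 and rpl19 at -0.31, and the highest values were those of rplp2 (0.20), rps26l (0.19) and rpl22 (0.14).

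The nuclear difference between mutants and siblings varied with transcript length within the family, a relation looked at after the values were seen. Transcripts of the family ran from 265 to 1469 bases with a median of 566, against 1730 over all symbols. Spearman's rho between length and the mutant over sibling log2 in nuclei was -0.49 over 76 genes, against -0.12 over the 2813 genes no longer than the longest of the family. The median was -0.20 for 29 genes under 500 bases, -0.53 for 30 genes of 500 to 800 bases and -0.60 for 17 longer ones. For all genes in those bins, the family among them, it was -0.35, -0.53 and -0.86. The last bin also holds genes longer than any of the family. In cytoplasm rho was 0.01. In siblings the rho between length and the nucleus to cytoplasm ratio was 0.40, against 0.18 over the genes no longer than the longest of the family. In mutants that rho had the opposite sign, at -0.38, against -0.10 over the same genes. The points of each relation share the same 2 libraries, so these values describe them and carry no test. The mutant nuclear library also had the fewest reads on listed transcripts, and its part in the relation was not tested.

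**Figure D5:**
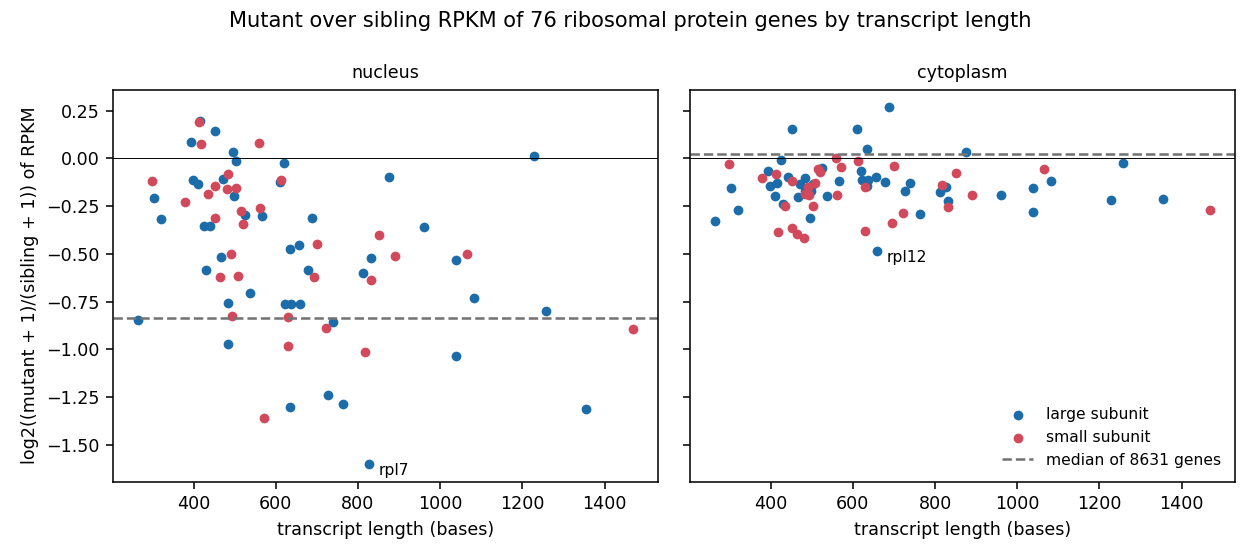
Log2 of mutant over sibling RPKM in the nucleus (left) and cytoplasm (right) against transcript length in bases for 76 ribosomal protein genes (blue large, red small subunit), with the median of 8631 genes dashed. In the nucleus the values spread from 0.20 for rplp2 down to -1.60 for rpl7, with longer transcripts mostly lower, and in the cytoplasm they run from -0.48 to 0.27 with no such slope.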

How the data were processed

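The deposited files hold 1 library each, with 15865 RefSeq transcript records on danRer7 (start and end), a read count and RPKM, per the file headers. In the replicate 2 whole-embryo files and the fraction files the start lay 1 base lower. It was raised by 1 there, so positions given here are 1-based. The deposited counts are whole numbers and were not normalized. The authors' RPKM is the count per kilobase and per 1000000 reads of 1 library total, which exceeds the listed reads. Reads were aligned with TopHat2 2.0.8, per the submitters' processing notes. The sources used here do not give how reads were counted, nor whether by strand; overlapping and antisense genes may therefore share reads.

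For each symbol the record with most reads was kept; 4 of the 77 genes had several records. The test took the 10147 genes whose RPKM averaged at least 1 in the 6 whole-embryo libraries and was run with edgeR 4.0.16 (R 4.3.3, quasi-likelihood, TMM scaling, all 6 libraries, Benjamini-Hochberg adjustment). Replicate number was a block: it coincides with the authors' file format, and deviations of same-numbered libraries from their group means correlated at 0.87, 0.71 and 0.76 between the 3 pairs of groups. The fit leaves 2 residual degrees of freedom. Fraction ratios used deposited RPKM with a pseudocount of 1, over genes with a mean fraction RPKM of 1 or more. The genes described and all lists were chosen with earlier results of these data known. Genes named are the 4 highest and 4 lowest by fold change in each comparison, the 5 highest and 5 lowest by level, the 4 highest and 4 lowest by nucleus to cytoplasm ratio in siblings, 4 paralog pairs, genes of known role, and genes of other lists that passed the test; rpl7, rps26l, rps15a as a replicate contrast, and the genes at an unadjusted p under 0.05 were named after their values were seen. Scripts were checked on simulated counts. Alternatives were other scalings, filters and pseudocounts, limma 3.58.1, DESeq2 1.42.0, summed records, no block, only the libraries compared and each library left out.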

Additional observations from a re-analysis of the deposited data

Results flagged for a closer look

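The share of listed reads on ribosomal protein genes differed between mutants and siblings in opposite directions in the 2 fractions. It was 3.32 percentage points higher in mutant than in sibling nuclei (17.4% against 14.1%) and -1.77 percentage points, mutant minus sibling, in cytoplasm (15.1% against 16.9%). The difference between the fractions was not tested, since each value comes from 1 library per genotype. In whole embryos the same difference was -0.83 percentage points in replicate 1 and -1.20 in replicate 2. Listed transcripts took 19.2% of the authors' total in mutant nuclei, against 33.5% in sibling nuclei, and on that total the nuclear order was reversed (3.34% in mutants, 4.71% in siblings).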

How the results depend on the processing

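The fit without the replicate block called 0 ribosomal protein genes in each of the 3 whole-embryo comparisons and gave medians of -0.14 for mutants over siblings, -0.14 for mutants over controls and 0.01 for siblings over controls. Between mutants and siblings the count of genes called lower was 0, but 1 with DESeq2 and 4 with only the 4 libraries compared; leaving out 1 library gave 0 to 6 lower, medians of -0.221 to -0.0677 for the large subunit and -0.291 to -0.0021 for the small subunit, where the lower end came without mutant replicate 1 and the upper end of the small subunit without mutant replicate 2. The share of all genes called with only the libraries compared, or with 1 library left out, is not given here. The counts of 4 and of 0 to 6 thus have no background beside them and cannot be set against the rate over all genes. Against controls DESeq2 called 5 lower. For siblings over controls, leaving out 1 library gave a median of -0.0681 to 0.0965 over the family and -0.0801 to 0.142 for the small subunit. The fold change of rps29 in mutants over controls ran from -0.0415 without control replicate 1 to 1.135 without control replicate 2, and in siblings over controls that of rplp1 ran from -0.0346 to 0.716 and that of rpl22 from -0.0517 to 0.545 under the same omissions; none of the 3 had passed the test. The cause was not tested.

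In the fractions the median nucleus to cytoplasm ratio of mutants was 0.26 on listed reads and 0.67 with TMM scaling, against -0.86 as deposited; that of siblings was -0.25 and -0.29, against -0.56. The nuclear median of mutants over siblings was 0.35 and 0.78, against -0.45, and the cytoplasmic median with TMM scaling was -0.17, against -0.15. Under the other alternatives run (scalings of the whole-embryo counts, filters, pseudocounts, limma and summed records) no further gene of the family was called, and the whole-embryo medians moved by less than the difference between replicates.

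The least counted gene of the family other than rps8b had 3031 reads in the shallowest library. The smallest fold change called for any gene between mutants and siblings was 0.78 on the log2 scale with edgeR and 0.39 with DESeq2.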

Other observations

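Transcript length was also related to the difference between siblings and controls within the family. Spearman's rho was -0.60 over 76 ribosomal protein genes, against -0.20 over 10147 genes, and -0.29 for mutants over controls and 0.10 for mutants over siblings. The 3 comparisons share libraries, and these values carry no test.

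rps27.1 and rps27.2, copies of a small subunit gene outside the symbol pattern, differed in nuclei. rps27.1 had 313 RPKM in mutant nuclei, against 622 in sibling nuclei, and rps27.2 had 381 in mutant nuclei, against 489 in sibling nuclei. These are values as deposited, from 1 library each. On that scale the median log2 of mutant over sibling nuclei was -0.84 over all 8631 genes. Past 2-fold lower were 39.9% of them. With TMM scaling that median was 0.04, so a lower value in mutant nuclei is not particular to these genes. In cytoplasm rps27.1 had 800.2 RPKM in mutants, against 896 in siblings, and rps27.2 had 677 in mutants, against 709 in siblings. In whole embryos their log2 fold changes over siblings were -0.01 and -0.04.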
